A study of Mus musculus with 6 samples.

Results

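The 32 genes described here code for the folding machinery of the endoplasmic reticulum (ER) and for its stress response, the unfolded protein response. They were chosen by symbol from a list of ER chaperones, disulfide enzymes, stress sensors, ER-associated degradation genes and translocon genes. All 32 were found among the 52550 genes of the files. These genes, and all lists used below, were chosen with earlier results of these data known, so their direction is not independent evidence. RNA-seq of polyadenylated RNA was made from mouse bone marrow cells labelled as hematopoietic stem cells. The KO group held 3 libraries of genotype VAV1crePpp2caf/f, in which a Cre recombinase under the blood-cell Vav1 promoter acts on floxed alleles of Ppp2ca, the catalytic subunit alpha of protein phosphatase 2A. The WT group held 3 libraries of genotype Ppp2caf/f, which carry the same floxed alleles with no Cre named. The labels give neither ages nor sort markers nor whether libraries of a group came from separate animals, so p-values measure the spread between these libraries, which may in part be technical.

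The ER folds proteins that enter the secretory pathway, with chaperones of the Hsp70 and Hsp90 families, lectins that hold sugar-bearing chains and enzymes that form disulfide bonds. When unfolded proteins build up, the membrane sensors IRE1 (gene Ern1), PERK (Eif2ak3) and ATF6 (Atf6) start the unfolded protein response: IRE1 splices the mRNA of the transcription factor XBP1, PERK slows translation and raises ATF4, and a fragment of ATF6 moves to the nucleus. XBP1 and ATF6 induce chaperone and degradation genes. In blood stem cells, which make protein slowly, this response is known to bear on survival under stress.

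ATF6 and XBP1 are known to act through the ER stress response element (ERSE), in which CCAAT and CCACG stand 9 bases apart, and through ERSE-II, in which ATTGG and CCACG stand 1 base apart. RefSeq promoter windows (GRCm38.p6, 250 bases before to 50 after each start) were at hand for 27 of the 32 genes. They were searched on both strands, and only exact matches were counted. The elements are printed because they are the known stress-response letters in these promoters, each 5′ to 3′ along the strand that carries it, with the matched parts in capitals. Positions count from +1 at the transcription start, with negative positions before it.
Hspa5 (chr2:34772025-34772043, + strand, positions -65 to -47): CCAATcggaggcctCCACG
Hsp90b1, first copy (chr10:86705638-86705656, - strand, positions -212 to -194): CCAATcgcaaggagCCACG
Hsp90b1, copy nearer the start (chr10:86705533-86705551, + strand, positions -107 to -89): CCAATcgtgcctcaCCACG
Dnajc3 (chr14:118937827-118937845, + strand, positions -105 to -87): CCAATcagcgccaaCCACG
Creld2 (chr15:88819520-88819538, - strand, positions -126 to -108): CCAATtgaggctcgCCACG
Calr (chr8:84847075-84847093, + strand, positions -162 to -144): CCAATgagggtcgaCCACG
Canx (chr11:50325800-50325818, - strand, positions -145 to -127): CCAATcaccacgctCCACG
Pdia6 (chr12:17266491-17266509, + strand, positions -98 to -80): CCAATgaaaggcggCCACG
Syvn1 (chr19:6046532-6046550, + strand, positions -44 to -26): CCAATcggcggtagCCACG
Derl3 (chr10:75893242-75893260, - strand, positions -156 to -138): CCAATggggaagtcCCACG
Dnajb11, ERSE-II (chr16:22857852-22857862, + strand, positions 8 to 18): ATTGGcCCACG
Herpud1, ERSE-II (chr8:94386377-94386387, + strand, positions -52 to -42): ATTGGgCCACG

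An ERSE stood in the windows of 9 of the 27 genes and an ERSE-II in those of 2. Over all 32851 RefSeq mouse promoter windows of this length, 39 (0.119%) held an ERSE and 12 (0.0365%) an ERSE-II. The core of the unfolded protein response element, TGACGTGG, was in 222 windows (0.676%) and the CRE-like TGACGTCA in 588 (1.79%), and neither was in a window of these genes. Whole stretches of 220 bases up to the start are shown, in the sense of the gene, for the most studied ERSE promoter, the promoter with a copy on each strand and the gene with an ERSE and the largest change among those that passed the test. In capitals stand the element's outer parts, which read CGTGG and ATTGG where the element lies on the other strand.
Hspa5 (chr2:34771870-34772089, + strand): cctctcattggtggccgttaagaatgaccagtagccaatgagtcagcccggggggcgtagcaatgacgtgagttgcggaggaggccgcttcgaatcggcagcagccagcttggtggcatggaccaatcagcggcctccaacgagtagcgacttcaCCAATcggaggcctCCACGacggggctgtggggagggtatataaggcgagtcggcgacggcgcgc
Hsp90b1 (chr10:86705445-86705664, - strand): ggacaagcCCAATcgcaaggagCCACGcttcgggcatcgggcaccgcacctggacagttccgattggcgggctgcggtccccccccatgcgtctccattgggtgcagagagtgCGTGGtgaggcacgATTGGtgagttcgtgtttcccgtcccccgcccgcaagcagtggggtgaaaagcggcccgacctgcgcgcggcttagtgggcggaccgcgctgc
Creld2 (chr15:88819426-88819645, + strand): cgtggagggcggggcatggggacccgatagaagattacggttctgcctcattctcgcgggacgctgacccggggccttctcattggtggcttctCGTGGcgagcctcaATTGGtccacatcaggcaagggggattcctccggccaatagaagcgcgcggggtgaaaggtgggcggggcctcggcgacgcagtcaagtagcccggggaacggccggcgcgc

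The targeted gene was read first as a check of the labels. Ppp2ca (ENSMUSG00000020349.4) had 23728, 22419 and 24046 normalised reads in the KO libraries, against 32909, 33451 and 33169 in the WT libraries. Normalised reads are gene read counts divided by 1 size factor per library, as deposited. The groups did not overlap, and KO held 70.5% of the WT level (log2 fold change -0.50 ± 0.07 SE, n = 3 each, limma adjusted p = 0.00268). The labels do not name the floxed exons, so reads from the rest of the gene may still be counted. Library totals ran from 46033994 to 58692037 reads in KO and from 37951985 to 48665968 reads in WT. Of 16 markers of hematopoietic stem cells, 14 were lower and 0 higher in KO, against 13.0% lower and 10.3% higher over all genes tested, and their summed level was 0.0683 to 0.106% of the library in KO against 0.211 to 0.250% in WT. Of 13 markers of granulocyte-monocyte progenitors, 11 were higher and 0 lower, with sums of 4.07 to 4.77% in KO against 3.16 to 3.57% in WT. These are bulk samples, in which a change in the share of a cell type and a change in RNA per cell cannot be told apart. The marker lists, too, were written with earlier results of these data known. The part of these markers in the results below was not tested.

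The ER folding and stress genes were higher in KO across most of their roles. Of the 32 genes, all of which passed the filter on low values, 23 rose and 0 fell, while the other 9 missed the threshold (limma on log2(value + 1), adjusted over all 20136 genes tested, threshold 0.05). Over all genes tested, 10.3% rose and 13.0% fell. Among the 7510 tested genes with a mean of at least 1000 normalised reads, a level that 31 of the 32 genes reached, 21.3% rose and 12.1% fell. The median log2 fold change of the 32 genes was 0.77, with a range of -0.57 to 1.42, against -0.02 over all genes tested and 0.09 over those with a mean of at least 1000. At a fold of at least 1.5, 20 of the 32 genes were higher, against 5.7% of all genes. In 28 of the 32 genes all KO libraries lay above all WT libraries, against 19.1% of all genes, and in 0 all lay below, against 21.7%. In either direction, 40.9% of all genes had groups that did not overlap. The 32 genes were chosen with earlier results of these data known, so these counts are not independent evidence. Together the 32 genes held 1.84, 2.17 and 2.0% of all normalised reads in the KO libraries, against 1.29, 1.38 and 1.23% in the WT libraries.

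**Figure D1:**
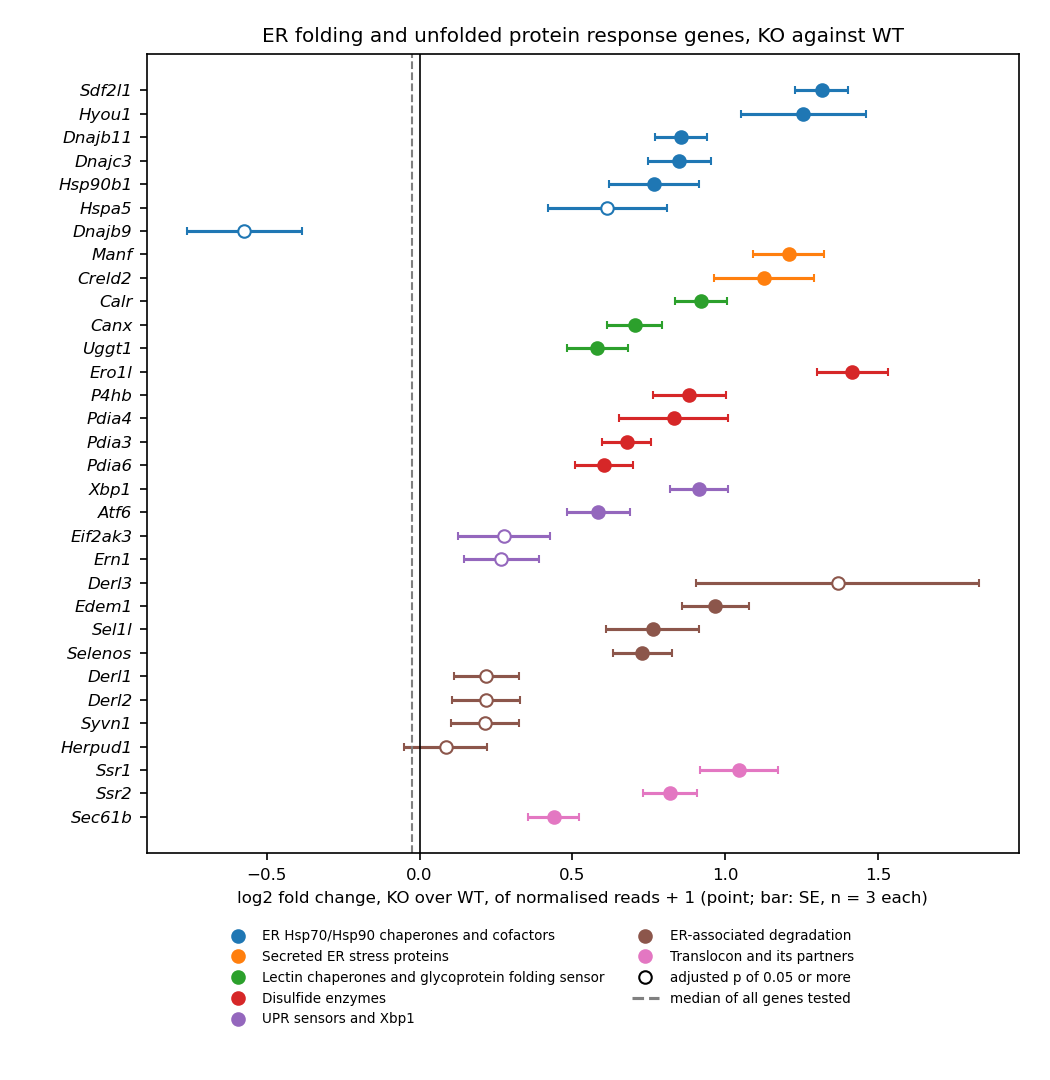
Log2 fold change, KO over WT, of normalised reads + 1 for each of the 32 genes, coloured by role, with bars for the standard error (n = 3 libraries each). Filled points passed the adjusted threshold of 0.05. All points but that of Dnajb9 (-0.57) lie above 0, and the highest, Ero1l, is at 1.42.

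The Hsp70 and Hsp90 chaperones with their cofactors rose in 5 of 7 genes, with a median log2 fold change of 0.85. Sdf2l1 (chr16:17130138-17132383, GRCm38), a small partner of ER J-proteins, had 22868, 26328 and 26241 normalised reads in KO against 9502, 10374 and 10385 in WT, and rose 2.49-fold (log2 fold change 1.32 ± 0.09 SE, limma adjusted p = 0.000428). Every KO library held more than double what the WT libraries held for this gene. Hyou1 (chr9:44379490-44392369), a large Hsp70-like chaperone that exchanges the nucleotide of BiP, had 2324, 3888 and 3025 in KO against 1041, 1401 and 1375 in WT, and rose 2.42-fold (1.26 ± 0.20, adjusted p = 0.00495). Its KO libraries spread widely but stayed above all WT libraries. Dnajb11 (chr16:22857845-22879634), a J-protein cofactor that hands substrates to BiP, had 14303, 15648.5 and 15778 in KO against 7809.9, 8865 and 8630.1 in WT, a 1.81-fold rise (adjusted p = 0.001). Dnajc3 (chr14:118937932-118981702), a J-protein also known as an inhibitor of PERK, had 21734, 26767 and 23752 in KO against 14141, 13760.1 and 12114 in WT, likewise a 1.81-fold rise (adjusted p = 0.00187). Both groups were tight for these cofactors. Hsp90b1, the ER member of the Hsp90 family (GRP94), averaged 59419 ± 11445 in KO and 34584 ± 3492 in WT (SD, n = 3 each; adjusted p = 0.00969), with 415 exonic bases shared with a transcribed pseudogene on the other strand.

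Hspa5 and Dnajb9 did not pass the test and are named after their values were seen, because they are the central chaperone of the response and the only gene of the 32 with a negative fold change. Hspa5 (chr2:34771970-34777547) codes for BiP, the ER Hsp70 that also holds the sensors inactive. It had 113268, 172117 and 147449 normalised reads in KO against 97580.3, 112683 and 72922 in WT. All KO libraries lay above all WT libraries, but KO replicate 1 and WT replicate 2 were nearly level, and the log2 fold change of 0.61 ± 0.20 had a limma adjusted p of 0.0575. Under the alternatives its adjusted p ran from 0.00647 with DESeq2 to 0.158, and 8 of 19 alternatives called it higher. Dnajb9 (chr12:44205559-44210326), the J-protein ERdj4 that restrains IRE1 and is a common marker of XBP1 activity, had 4331, 6672 and 5477 in KO against 9318, 8690.0 and 6453 in WT. KO replicate 2 lay above WT replicate 3, so the groups overlapped, and the log2 fold change of -0.57 ± 0.19 had an adjusted p of 0.0637. It was called lower in 6 of the 19 alternatives, with adjusted p from 0.0126 (DESeq2) to 0.174.

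Both secreted ER stress proteins rose. Manf (chr9:106838312-106891979), a factor held in the ER and released under stress, had 17644, 19393 and 19974 normalised reads in KO against 8719.95, 9121 and 6969.5 in WT (2.30-fold, log2 fold change 1.21 ± 0.12, limma adjusted p = 0.000879). Creld2 (chr15:88819646-88826681), a cysteine-rich ER protein, had 11574, 18767 and 14800.2 in KO against 6345.5, 7147 and 6809 in WT (2.22-fold, 1.13 ± 0.16, adjusted p = 0.00341). The lowest KO library of each stood clear of the highest WT library. The exons of Manf share 146 bases with Dcaf1 on the other strand, and the labels do not say whether counting used strand.

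**Figure D2:**
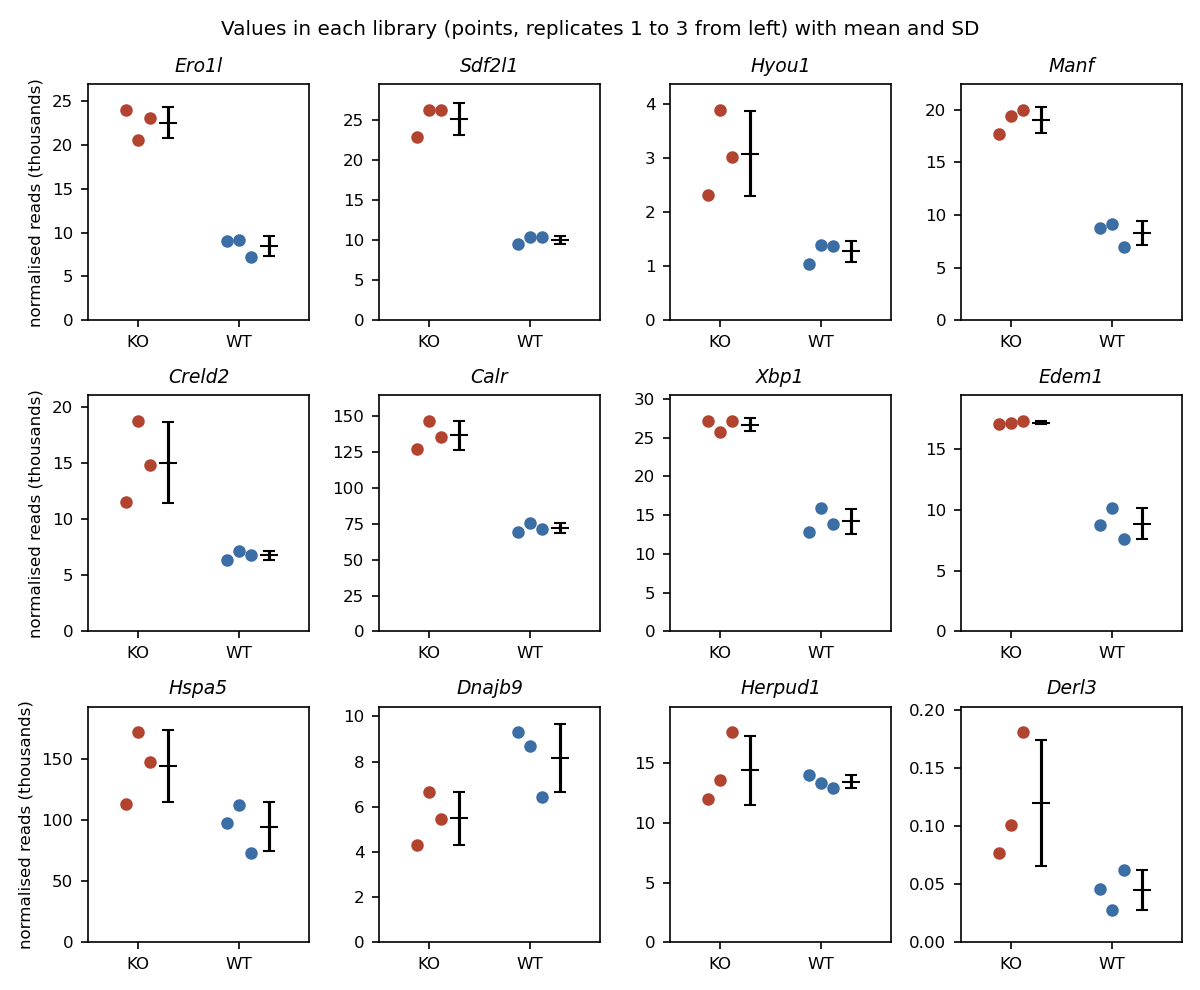
Normalised reads (in units of 1000, axis from 0) in each library for 12 of the genes, KO left of WT, with points for replicates 1 to 3 from left to right and the mean ± SD beside them (n = 3 each). The groups stand apart in the panels from Ero1l to Edem1, while those of Dnajb9 and Herpud1 overlap, and Hspa5 KO replicate 1 (113268) lies just above WT replicate 2 (112683).

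All 3 lectin chaperones and glycoprotein folding genes rose, with a median log2 fold change of 0.70. Calr (chr8:84841850-84846934), the soluble lectin chaperone calreticulin, had 127136, 146864 and 135800.0 normalised reads in KO against 69078, 75895 and 71345 in WT (1.89-fold, 0.92 ± 0.08, limma adjusted p = 0.000794). Every KO library held well above the highest WT library. A processed pseudogene, Calr-ps, is annotated, and the labels do not say where reads matching both were counted. Canx, the membrane-bound lectin calnexin, averaged 49378 ± 2731 in KO and 30364 ± 2552 in WT (1.63-fold, adjusted p = 0.00211). Uggt1, which puts glucose back on unfolded glycoproteins so that the lectins hold them again, averaged 14703 ± 1543 in KO and 9804 ± 605 in WT (1.5-fold, adjusted p = 0.00624).

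All 5 disulfide enzymes rose, with a median log2 fold change of 0.83. Ero1l (chr14:45283092-45318572), the oxidase that re-oxidises protein disulfide isomerases, had 23961, 20491 and 23041 normalised reads in KO against 9024, 9169 and 7197 in WT. It had the largest fold change of the 32 genes in this fit, 2.66-fold (log2 fold change 1.42 ± 0.12, limma adjusted p = 0.000616), and its KO libraries differed little among themselves. Derl3, next by fold change, lay above it with library quality weights (log2 fold change 1.97, against 1.43 for Ero1l). In that fit KO replicate 3 had a weight of 5.08, against 0.558 to 1.186 for the other libraries. Derl3 also lay above Ero1l with quantile normalization (1.77 against 1.22), and without KO replicate 1 (1.64 against 1.37) or WT replicate 3 (1.63 against 1.30). P4hb (chr11:120560298-120573253), the classical protein disulfide isomerase, had 74813, 93876 and 87662 in KO against 40742, 51940.1 and 46425 in WT (1.84-fold, adjusted p = 0.00266). Pdia4 (chr6:47796141-47813430), a multi-domain isomerase, had 21298, 36192 and 28785 in KO against 15798, 17073 and 14606 in WT (1.82-fold, 0.83 ± 0.18, adjusted p = 0.0143). Its KO libraries spread most of these enzymes, and its adjusted p was 0.0692 when limma ran with no intensity trend and 0.0515 when KO replicate 3 was left out. Pdia3, the isomerase that works with the lectins, rose 1.6-fold (116584 ± 7349 in KO, 72806 ± 2993 in WT, adjusted p = 0.00174). Pdia6, an isomerase known to act on IRE1 and BiP clients, rose 1.52-fold (58697 ± 4604 in KO, 38648 ± 3085 in WT, adjusted p = 0.00438).

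Of the sensors and Xbp1, 2 of 4 rose. Among all tested genes with a mean of at least 1000, 21.3% rose, and 4 genes are too few to compare. Xbp1 (chr11:5520659-5525893) had 27178, 25751 and 27111 normalised reads in KO against 12799.8, 15987 and 13828 in WT (1.88-fold, 0.92 ± 0.10, limma adjusted p = 0.00124). The values count the whole gene and do not separate the spliced from the unspliced mRNA. Atf6 (chr1:170704674-170867771) had 3772, 3568 and 3866 in KO against 2302, 2779 and 2410 in WT (1.5-fold, 0.58 ± 0.10, adjusted p = 0.00679). The KO and WT libraries of both genes did not overlap. Ern1 (chr11:106394650-106487852) had 1588, 1820.4 and 1782 in KO against 1528, 1523.5 and 1269 in WT, with a log2 fold change of 0.27 ± 0.12 (adjusted p = 0.16). Eif2ak3 (chr6:70844515-70905245) had 1527, 1985 and 1826 in KO against 1249, 1512 and 1648 in WT, with 0.28 ± 0.15 (adjusted p = 0.233). Its groups overlapped, since KO replicate 1 lay below WT replicate 3, and neither kinase passed the test in any of the 19 alternatives. Whether the fold of Xbp1 differs from that of the kinases was not tested.

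Of 8 genes of ER-associated degradation, which pulls misfolded proteins out of the ER for the proteasome, 3 rose (37.5%) and 5 missed the threshold. Among all tested genes with a mean of at least 1000, 21.3% rose. Counts this small do not set these 8 genes apart. Edem1 (chr6:108828641-108859356), a lectin-like factor that picks glycoproteins for degradation, had 17077, 17138 and 17338 normalised reads in KO against 8756, 10174 and 7617 in WT (1.94-fold, 0.97 ± 0.11, limma adjusted p = 0.00153). Its 3 KO libraries were almost equal. Sel1l, the adaptor of the HRD1 ubiquitin ligase, rose 1.71-fold (13216 ± 2397 in KO, 7739.9 ± 975 in WT, adjusted p = 0.0109). Selenos, a selenoprotein of the retrotranslocation complex, rose 1.66-fold (5569.9 ± 489 in KO, 3355 ± 156 in WT, adjusted p = 0.0025). Syvn1, the HRD1 ligase itself, named after its values were seen, had 1504, 1568 and 1539 in KO against 1281, 1463 and 1239 in WT, with a log2 fold change of 0.21 ± 0.11 and an adjusted p of 0.212.

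The derlins, membrane proteins of the same route, did not pass the test and are named after their values were seen. Derl1 and Derl2 each had a log2 fold change of 0.22 ± 0.11 (limma adjusted p = 0.189 and 0.207), and Derl2 shares 231 exonic bases with Mis12 on the other strand. Derl3 (chr10:75893413-75895941) had 77.2, 101 and 181 normalised reads in KO against 45.6, 27.6 and 62.4 in WT. The groups did not overlap, but at these low counts the log2 fold change of 1.37 ± 0.46 had an adjusted p of 0.0698, and 3 of 19 alternatives called it higher. Herpud1 (chr8:94386438-94395377), a stress-induced adaptor of the HRD1 complex, had 12020.5, 13589 and 17611 in KO against 13993, 13351 and 12906 in WT. KO replicate 1 was below all WT libraries and KO replicate 3 above all of them, and the log2 fold change was 0.08 ± 0.14 (adjusted p = 0.706).

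All 3 translocon genes, which bring new chains into the ER, rose. Ssr1 (chr13:37966605-37994217), a subunit of the translocon-associated protein complex, had 45878, 45506 and 45754 normalised reads in KO against 25456, 23673 and 18012 in WT (2.04-fold, 1.05 ± 0.13, limma adjusted p = 0.00187). Ssr2 (chr3:88575876-88588419), another subunit of that complex, had 23962, 21746 and 23363 in KO against 11806, 13626 and 13769.7 in WT (1.76-fold, 0.82 ± 0.09, adjusted p = 0.00137). Sec61b, a subunit of the channel, rose 1.35-fold (9834 ± 215 in KO, 7269 ± 539 in WT, adjusted p = 0.00939). For all 3 genes the KO libraries were close together and above every WT library.

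Per kilobase of exon, the order of levels in KO was led by Calr at 47431 ± 3433 normalised reads per kb (SD, n = 3), against 25037 ± 1205 in WT. Pdia3 stood at 37141 ± 2341 in KO against 23194 ± 953 in WT, Hspa5 at 34116 ± 6988 against 22321 ± 4746, and P4hb at 29867 ± 3398 against 16207 ± 1957. In KO, the Calr libraries lay above all others, while those of Pdia3 and Hspa5 overlapped, as did those of Hspa5 and P4hb. In WT, each of these genes overlapped the next in the order. The sensors lay far lower, with Atf6 at 405 ± 16.5 in KO against 270.5 ± 27.1 in WT, Eif2ak3 at 295 ± 38.6 against 244 ± 33.7 and Ern1 at 212 ± 15.2 against 176 ± 18.1. The chaperone Hyou1 lay near these sensors, at 426 ± 108 in KO against 176 ± 27.7 in WT. So did Syvn1, at 316 ± 6.63 against 273 ± 24.4. In WT the libraries of Atf6 and Eif2ak3 overlapped, and in KO they did not. Derl3 was the lowest of the 32 genes, at 60.1 ± 27.3 in KO against 22.7 ± 8.75 in WT.

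The genes did not vary alike among the KO libraries. Of the 17 folding genes (chaperones, cofactors, secreted proteins, lectins and disulfide enzymes), 16 were lowest in KO replicate 1 among the KO libraries, the exception being Ero1l, and 14 were highest in KO replicate 2. Of the 15 sensor, degradation and translocon genes, 7 were lowest in KO replicate 1 and 7 in KO replicate 2, and 4 were highest in KO replicate 2. Over all genes tested 42.2% were lowest in KO replicate 1, and 48.0% of those with a mean of at least 1000. The shares lowest in KO replicate 2 were 35.1 and 38.3%, and those highest in KO replicate 2 were 38.0 and 42.7%. The coefficient of variation among KO libraries had a median of 8.39% over the 32 genes, from 0.414% for Ssr1 to 45.4% for Derl3, against a median of 9.03% among WT libraries. Dnajb9, although it had a negative fold change, was lowest in KO replicate 1 and highest in KO replicate 2, like most of the other folding genes. The median log2 deviation of the 32 genes from the WT mean was 0.66, 0.85 and 0.78 in KO replicates 1 to 3, against -0.05, 0.09 and -0.02 in WT replicates 1 to 3.

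**Figure D3:**
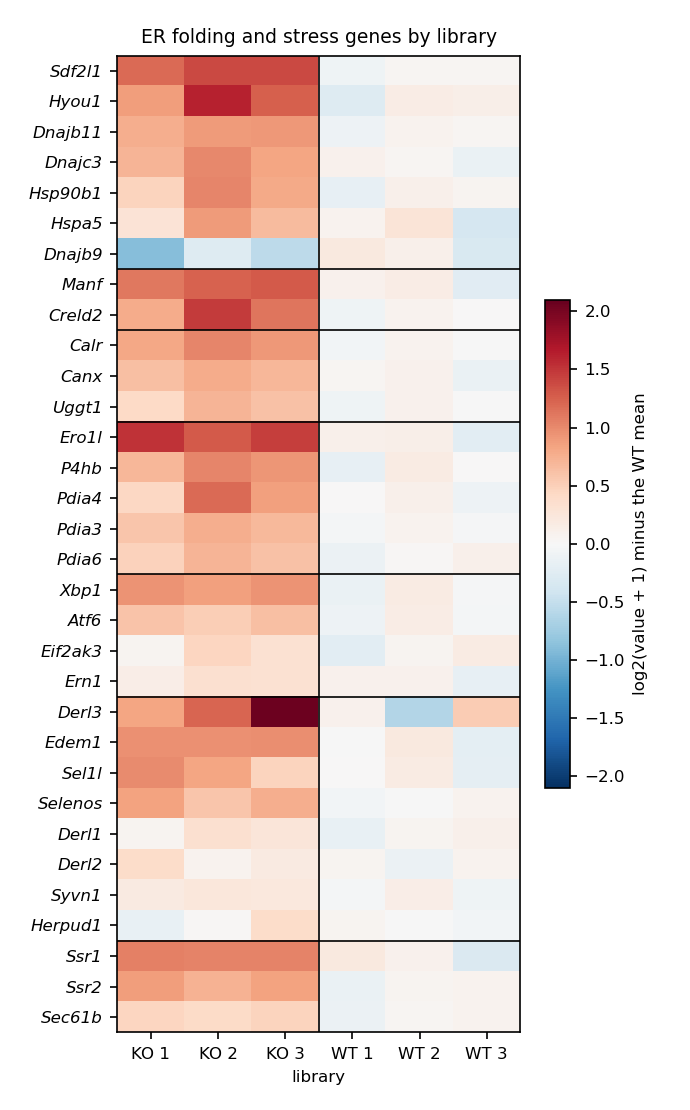
Log2 deviation of each gene (rows, by role) from its WT mean in each library (columns, KO left of WT). Most rows are positive in all KO libraries, KO replicate 1 is the palest of the KO columns for most folding genes, and the rows of Dnajb9 and Herpud1 hold negative KO values.

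By the calls at this threshold, presence of an ERSE did not separate the genes that rose from those that did not pass the test. Of the 19 genes with a window that rose, 6 held an ERSE, and of the 8 with a window that did not pass the test, 3 did (Hspa5, Syvn1 and Derl3). In these 3 genes all KO libraries still lay above all WT libraries. This was so in 28 of the 32 genes and in 19.1% of all genes tested. Of the genes without an ERSE that did not pass the test, it held for Ern1 and Derl2. It did not hold for Dnajb9, Eif2ak3 and Herpud1, the last with an ERSE-II. A difference between genes with and without an ERSE was not tested. The median log2 fold change was 0.77 with an ERSE (range 0.21 to 1.37) and 0.75 without one (range -0.57 to 1.42). Of the 2 genes with an ERSE-II, Dnajb11 rose and Herpud1 did not pass the test. A match is a description of letters and not a bound site. Only exact matches were counted, so genes given as without an ERSE may hold a version with a changed letter. The 5 genes without a window (Hyou1, Manf, Atf6, Derl1 and Ssr2) were not searched.

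**Figure D4:**
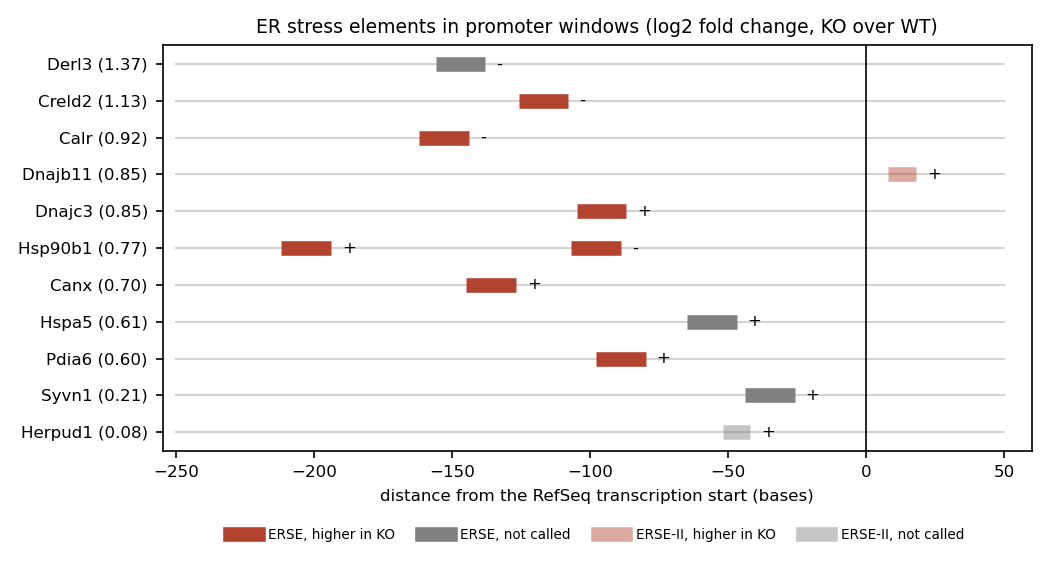
Place of each element (bars) in the promoter windows of 11 genes, in bases from the RefSeq transcription start, with + and - for its strand relative to the gene and the gene's log2 fold change, KO over WT, in brackets. Genes are ordered by fold change, from Derl3 (1.37) to Herpud1 (0.08). Red bars mark genes that rose and grey ones genes that did not pass the test, and both colours occur from top to bottom.

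Other genes of the secretory pathway were read from 6 lists holding 172 tested genes, of which 65 rose (37.8%) and 8 fell (4.65%). Over all genes tested, 10.3% rose and 13.0% fell, and of those with a mean of at least 1000, 21.3% and 12.1%. The median log2 fold change of the 172 genes was 0.27. The lists were written with earlier results of these data known, so their direction is not independent evidence. Among 34 N-glycosylation and glycan trimming genes 15 rose and 0 fell. They were led by the oligosaccharyltransferase subunits Rpn1 (log2 fold change 0.64), Stt3b (0.67) and Ostc (0.47) and the cargo lectin Lman2 (0.44). Among 29 other translocon and signal peptide genes 17 rose and 0 fell, with the channel subunit Sec61a1 at 0.86, the Ssr1 partners Ssr3 and Ssr4 at 0.80 and 0.63, and Srp19 of the signal recognition particle at 0.75. Among 34 genes of ER to Golgi transport 17 rose and 2 fell. Kdelr2, the receptor that returns escaped chaperones to the ER, had 16478, 15100.3 and 16115 normalised reads in KO against 6113, 7192 and 5979.8 in WT, a rise of 1.31 ± 0.10 (limma adjusted p = 0.000428). The coat subunit Sec24d rose by 1.0 and the cargo receptor Surf4 by 0.89.

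Of the 33 other disulfide enzymes and foldases, 8 rose (24.2%) and 5 fell (15.2%), with a median log2 fold change of 0.05. These shares were near the 21.3% and 12.1% of all tested genes with a mean of at least 1000. Fkbp11, an ER prolyl isomerase, had 3017, 3077 and 3197 normalised reads in KO against 954, 1217 and 1090.0 in WT (1.52 ± 0.12, limma adjusted p = 0.000507). Tmx4, a membrane thioredoxin-like protein, rose by 1.55 ± 0.15. Prdx4, an ER peroxiredoxin that uses peroxide to form disulfides, had 655, 840 and 803 in KO against 2166, 2133 and 2417 in WT, and fell (log2 fold change -1.55 ± 0.13, adjusted p = 0.000704). Grpel1 (0.59), also named by its p, codes for a mitochondrial protein. Of 24 other ER-associated degradation genes 5 rose and 1 fell, with Svip at 0.62, Ube2j1 at 0.46 and the glycanase Ngly1 at -0.68. The share that rose, 20.8%, was near the 21.3% of all genes with a mean of at least 1000. Vcp, the ATPase that extracts substrates, had 0.31, a call lost in 9 of 19 alternatives. Of 18 other regulators of the response 3 rose and 0 fell: Bak1 (1.38), Rtcb (0.29), which ligates spliced Xbp1, and Atf6b (0.39). That share, 16.7%, was below 21.3%, and neither count sets its list apart from other well-expressed genes. The calls were lost in 4, 11 and 10 of 19 alternatives in that order, and Bax (0.37), next by p, was not called.

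Of 12 genes of the ATF4 arm, downstream of PERK and of other kinases, 5 rose (41.7%) and 2 fell (16.7%). Over all genes tested, 10.3% rose and 13.0% fell. Atf4 had 10469, 14192 and 12906 normalised reads in KO against 7247, 8499 and 7328 in WT (0.70 ± 0.13, limma adjusted p = 0.00782). Among its known targets, Chac1, a glutathione-degrading enzyme, had a log2 fold change of 2.68 and the asparagine synthetase Asns 0.93, and Cebpb, another transcription factor on the list, 1.01. The genes that fell and Ddit3 are named beyond the first 4 by p, after their values were seen. Ppp1r15a, which reverses the translation block, fell by 0.81 on the log2 scale (adjusted p = 0.0247) and Trib3 fell by 1.30 (adjusted p = 0.0483), calls lost in 4 and 11 of 19 alternatives. Ddit3, the stress factor CHOP, had 1069, 1189 and 1049 in KO against 1391, 1414 and 1143 in WT and did not pass the test (adjusted p = 0.214).

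**Figure D5:**
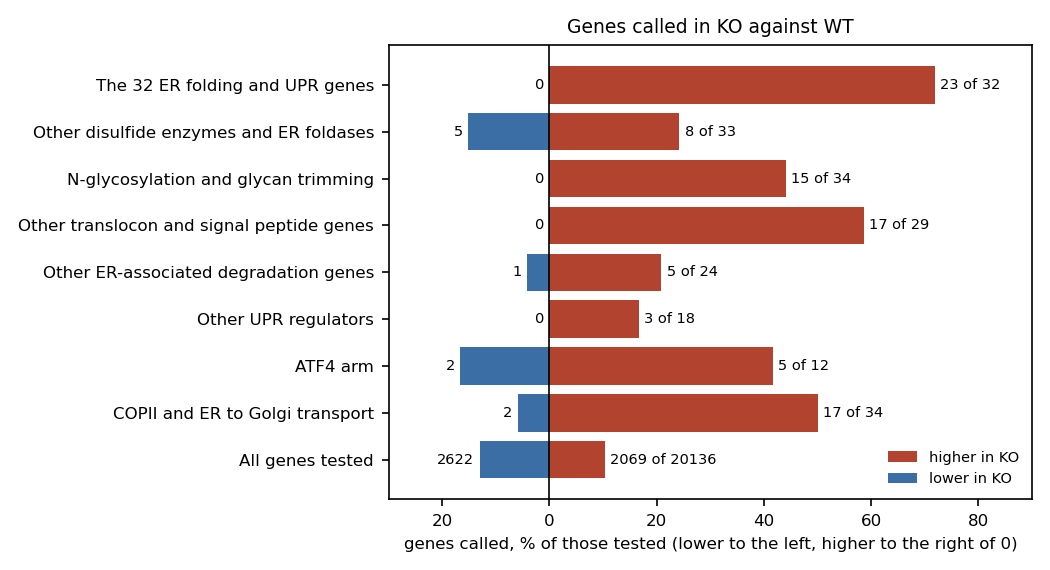
Share of tested genes called higher (right of 0) or lower (left of 0) in KO, in percent, for the 32 genes, 7 other lists and all genes tested, with the counts beside the bars. The 32 genes have the highest share called higher (23 of 32), and all genes tested the lowest (2069 of 20136).

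Other cell types of the bone marrow, among them the ER-rich plasma cells, were read by their markers, beside the 10.3% of all genes tested that rose and the 13.0% that fell. Of 11 tested plasma cell markers 0 rose and 6 fell, with summed levels of 0.0154 to 0.0242% of the library in KO against 0.0588 to 0.182% in WT, and Tnfrsf17 was at 0 in all KO libraries. Igkc, the immunoglobulin kappa chain, had 753, 232 and 545 normalised reads in KO against 29557, 10624 and 12700.5 in WT. Of 10 mature neutrophil markers 3 rose and 1 fell (0.242 to 0.543% in KO, 0.186 to 0.308% in WT), with the highest sum in KO replicate 1. B cell markers (2 of 7 lower), macrophage markers (4 of 10), erythroid markers (9 of 10), plasmacytoid dendritic cell markers (8 of 11) and mast cell and basophil markers (4 of 7) held 0 higher genes. Their sums lay between 0.0113 and 0.0416% of the library in KO and between 0.0338 and 0.117% in WT. The B cell factors Ebf1 and Pax5 and the mast cell proteases Tpsb2 and Mcpt4 were at 0 in all libraries. These genes and Tnfrsf17 are named for their 0 values, after these were seen.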

How the data were processed

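Per the labels' protocols, Trizol was used to extract RNA and a VAHTS mRNA-seq v2 kit to build the libraries. The submitters' processing notes name HISAT2 and StringTie, and as builds mm8 and mm10, but no versions or roles. Counting method and strand are not given in the sources used here. Coordinates are GRCm38, since all 49035 identifiers found in GENCODE M21 with the same version had the same start and end. Each deposited file gives a signal per gene, headed only as expression, and within a library 100% of values were whole multiples of a single step, within 0.01 read, so they are read counts divided by a size factor, and whole reads were recovered. No 2 libraries agreed within sampling noise (chi-square per degree of freedom of 40.96 or more), so the spread between libraries exceeded counting error.

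The fit was limma 3.58.1 in R 4.3.3 (eBayes with intensity trend) on log2(value + 1). The 20136 genes tested reached a value of 1 or more in 3 or more of the 6 libraries. The test was two-sided, with Benjamini-Hochberg adjustment at 0.05. Fold changes on this scale understate changes of low genes. Count tests on recovered reads (edgeR 4.0.16, DESeq2 1.42.0) and 17 other alternatives were run. edgeR called 2075 genes higher and 2496 lower of 16708, and DESeq2 2400 higher and 2950 lower of 19932. The script was tested on simulated data. Same-numbered KO and WT libraries did not deviate together, so numbers were not used as pairs, though this does not exclude a shared preparation.

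The 32 genes and all lists were chosen with earlier results of these data known. Per-library values are given for Ppp2ca, the sensors and Xbp1, the 14 genes with the largest change among those called and any called lower, and up to 4 genes by smallest p per list. Other genes are named after their values were seen, and the text says so. Of 289 listed symbols 1 was not found. Protein features, foreseen in the plan, were not analysed here.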

Additional observations from a re-analysis of the deposited data

How the results depend on the processing

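Of the 23 genes called higher, 19 kept the call in all 19 alternatives and 30 of the 32 genes kept a positive fold change in every one. Without the intensity trend 19 were called, with adjusted p of 0.0692 for Pdia4, 0.0567 for Hsp90b1, 0.0594 for Sel1l and 0.0628 for Sec61b. The other alternatives called 22 to 25 genes higher, 22 to 24 when one library was left out. The count called lower was 1 (Dnajb9) with DESeq2, library quality weights, quantile normalization and total read scaling, and 0 to 1 with one library left out. The median log2 fold change of the 32 genes was 0.59 with quantile normalization and 0.62 with total read scaling, and 0.70 to 0.84 with one library left out. Herpud1 turned to -0.11 with quantile normalization and -0.058 with total read scaling, and ran from -0.069 (without KO replicate 3) to 0.21 with one library left out. Total read scaling moved the median of all genes to -0.16. Over all genes, 2069 were called higher and 2622 lower. Higher calls were 3198 with library quality weights, a fit in which KO replicate 3 weighed 5.08 and the other libraries 0.558 to 1.186. Without the intensity trend they were 1071, and with total read scaling 1337 (3511 lower). With one library left out they were 993 to 1787, fewest without KO replicate 3. Lower calls were 1565 to 2604 with one library left out. Of the other secretory genes, 65 were called higher, against 22 without the intensity trend, 37 with quantile normalization, 32 with total read scaling and 29 to 58 with one library left out (29 without KO replicate 3, 41 without WT replicate 1, 43 without WT replicate 3). Their lower calls were 13 with total read scaling and 5 to 8 with one library left out, against 8. The cause of these changes was not tested. Same-numbered KO and WT libraries correlated at -0.023, -0.011 and -0.021, and the other combinations at 0.002 to 0.018. The labels do not say whether same-numbered libraries were prepared together, and such low correlations with 3 libraries a group cannot exclude it. With the replicate block, 24 of the 32 genes were called higher and 0 lower, adding Hspa5 (adjusted p = 0.0406), and over all genes 1705 higher and 2157 lower. With 3 libraries a group, changes the size of those of Ern1, Eif2ak3, Derl1 and Derl2, 0.22 to 0.28 on the log2 scale, were not resolved.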

Other observations

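Some further genes of ER oxidation, picked out after their values were seen, are given as values. Ero1lb, the second ER oxidase beside Ero1l, had 2651, 3426 and 2745 normalised reads in KO against 2231, 1766 and 2161 in WT (log2 fold change 0.52 ± 0.14, limma adjusted p = 0.0341), a call lost in 8 of 19 alternatives. Gpx7, an ER glutathione peroxidase that oxidises disulfide isomerases, had 10.7, 29.5 and 13.8 in KO against 159, 147 and 216 in WT (-3.31 ± 0.46, adjusted p = 0.00282). Its relative Gpx8 had 0, 2.95 and 0 in KO against 49.1, 41.9 and 108.8 in WT, and its KO libraries were at or under the floor of 3 reads per library (adjusted p = 0.00324). Prdx4 fell as well, as given above. These 3 peroxidases were lower in every KO library than in any WT library, as were 21.7% of all genes tested.

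Beyond the 32 genes, 28 named genes had an ERSE in their RefSeq window, and 13 of them were tested. They include Ero1b, given above as Ero1lb. Of these 13, 3 rose and 2 fell, while the other 8 missed the threshold, against 10.3% higher and 13.0% lower over all genes tested. Counts this small do not set the 13 genes apart. Their median log2 fold change was -0.03. The genes that rose were Acacb, an acetyl-CoA carboxylase (2.20, limma adjusted p = 0.0117), Hnrnpa3, an RNA-binding protein (0.65, adjusted p = 0.00593), and Ero1b, which the files call Ero1lb. Those that fell were Tdrd9 (-3.65, adjusted p = 0.0197) and Zfp57 (-2.71, adjusted p = 0.0185).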
